A study of Homo sapiens with 12 samples.

Results

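The 38 genes described here are known targets of the estrogen receptor, named by symbol and found in the table by that symbol, each as 1 entry of 57773. Of the 38, 33 had enough counts to be tested and 5 did not (TFF1, TFF3, CXCL12, RET and PGR), so counts of changed genes below are out of 33. They were measured by RNA sequencing in PEO1 cells, an established line of human ovarian cancer, in 12 libraries that form 4 groups of 3. Control-vector cells carried pLKO.1 and hairpin cells carried shp53, a short hairpin RNA against p53. Each line was sampled untreated at 0 h and after 48 h with 10 μM fulvestrant. All groups were kept in 10% serum with puromycin at 2 μg/mL, and the protocol names estradiol at 100 pM beside fulvestrant. The sources used here do not say whether untreated cells received estradiol, nor whether either line is 1 clone or a pool. Between fulvestrant and untreated cells, the effects of the drug, of time and of estradiol cannot be told apart. Nor do they say that the libraries are separate cultures, and p-values rest on how far these 12 samples spread, which can be technical.

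Estrogen receptor alpha, the product of ESR1, is a transcription factor that estradiol switches on. It binds estrogen response elements, inverted repeats of the letters GGTCA, mostly in enhancers far from the genes they act on, and it also works through other factors bound at AP-1 sites and GC boxes. Its classic targets, many of them first described in breast cancer cells, encode secreted proteins, receptors, transporters, transcription factors and enzymes. Fulvestrant is an antagonist that also causes the receptor protein to be degraded.

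Libraries held 21581887 to 28481541 counts. Levels are CPM, counts scaled to a common library size and not divided by transcript length, and are compared only within a gene. A value after ± is the SD of n = 3 libraries. Of 12 ovarian carcinoma markers, SOX17 was at 0 in all libraries and FOLR1 was under 1 CPM, and the 12 together held 5308 to 8648 CPM. Of 6 leukocyte markers 4 were under 1 CPM on average, among them PTPRC and CD3E, and the 6 summed to 57.7 to 79.7 CPM. Of 7 fibroblast markers 5 were under 1 CPM (COL1A2, COL3A1, DCN, LUM and PDGFRB), and the 7 summed to 82.9 to 252.0 CPM. The 3 mesothelial markers summed to 22.6 to 51.4 CPM, and 3 endothelial markers to 5.01 to 9.96 CPM. Libraries of a group differed along a trend with transcript GC content, and in every group the library farthest from the other 2 was picked. These were library 1 of both untreated groups, library 3 of treated control-vector cells and library 2 of treated hairpin cells. The 3 untreated hairpin libraries were graded along the trend, with library 1 only a little farther out than library 3. The spread that this trend gives the estrogen-regulated genes is described after the comparisons.

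Promoter windows, from 250 bases before to 50 bases after the start of the transcript, were found for 30 of the 38 genes in RefSeq (GRCh38.p14). The 8 without a window were TFF1, TFF3, P2RY2, MYBL1, EGR3, ADCY9, RERG and FKBP4. The full response element GGTCANNNTGACC, searched on both strands, was in 0 of the 30 first windows, and in 0.0659% of the first windows of 27305 genes. Its GGTCA arm alone (TGACC on the other strand, and contained in the full element) was in 11 of 30, or 36.7%, against 37.7% of all genes. The GC box GGGCGG, which reads CCGCCC on the other strand, was in 21 of 30, or 70.0%, against 44.6% of all genes. The AP-1 site TGANTCA, again on both strands, was in 0 of 30 and in 7.76% of all genes. All genes here means every RefSeq gene with a window, expressed in these cells or not, so it is not a matched background. Of the 8 genes with a window that fell with fulvestrant in both lines, as described below, 4 held a GC box and 1 the GGTCA arm. Where all windows of a gene were searched, 15 genes held the GGTCA arm, 24 the GC box and 2 (NBL1 and PKIB) the AP-1 site. Genes differ in their number of windows, and the share of all genes with a match in any window was not computed. The windows below belong to the 5 genes with the largest changes among those that changed with fulvestrant in both lines and have a window. They leave out EGR3 and MYBL1, which fell most of all but have no window. The windows show how unlike these promoters are. Capitals mark GGTCA arms and GC boxes. They lie at chr7:16804950-16805249 on the minus strand for AGR2, at chr4:163332547-163332846 on the minus strand for NPY1R, at chr5:132369460-132369759 on the plus strand for SLC22A5, at chr2:216034047-216034346 on the minus strand for MREG and at chr6:135181058-135181357 on the plus strand for MYB.
AGR2: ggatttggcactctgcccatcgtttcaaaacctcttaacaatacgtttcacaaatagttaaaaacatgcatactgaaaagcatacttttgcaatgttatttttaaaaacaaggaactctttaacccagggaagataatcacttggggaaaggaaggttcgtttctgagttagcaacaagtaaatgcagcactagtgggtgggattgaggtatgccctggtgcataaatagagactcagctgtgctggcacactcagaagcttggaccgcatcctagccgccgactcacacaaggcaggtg
NPY1R: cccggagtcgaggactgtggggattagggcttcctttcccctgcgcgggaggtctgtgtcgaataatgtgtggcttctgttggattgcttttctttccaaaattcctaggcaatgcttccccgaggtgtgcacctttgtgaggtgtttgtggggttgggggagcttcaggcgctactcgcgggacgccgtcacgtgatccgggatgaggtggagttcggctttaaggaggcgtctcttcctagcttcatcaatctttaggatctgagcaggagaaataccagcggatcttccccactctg
SLC22A5: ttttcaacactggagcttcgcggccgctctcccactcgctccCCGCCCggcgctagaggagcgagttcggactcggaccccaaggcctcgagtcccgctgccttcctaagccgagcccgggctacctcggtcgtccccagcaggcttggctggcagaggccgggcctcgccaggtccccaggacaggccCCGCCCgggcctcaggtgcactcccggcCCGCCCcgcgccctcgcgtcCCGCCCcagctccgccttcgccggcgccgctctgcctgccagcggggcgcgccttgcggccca
MREG: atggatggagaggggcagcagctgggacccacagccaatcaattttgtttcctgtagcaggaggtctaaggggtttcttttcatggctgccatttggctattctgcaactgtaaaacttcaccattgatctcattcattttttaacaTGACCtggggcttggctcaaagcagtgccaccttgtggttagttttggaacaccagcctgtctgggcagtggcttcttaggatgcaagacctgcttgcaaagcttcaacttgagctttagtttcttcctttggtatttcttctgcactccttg
MYB: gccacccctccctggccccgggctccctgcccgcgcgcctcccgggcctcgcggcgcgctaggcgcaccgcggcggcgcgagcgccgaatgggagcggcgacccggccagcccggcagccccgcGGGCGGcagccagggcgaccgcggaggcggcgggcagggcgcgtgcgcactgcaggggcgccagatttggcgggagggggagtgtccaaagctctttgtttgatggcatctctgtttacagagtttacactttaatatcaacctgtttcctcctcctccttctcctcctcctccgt
SLC22A5 holds 4 GC boxes and MYB 1, MREG holds 1 GGTCA arm at position -103 from the start, and the AGR2 and NPY1R windows hold none of the 4 motifs. A match of letters is not a measured binding site, and no match says only that the letters are not in these 300 bases.

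With fulvestrant, 11 estrogen-regulated genes fell in both lines and 1, AGR2, rose in both. The 11 were the transcription factor and cofactor genes MYB, MYBL1, EGR3 and FHL2, the receptor gene NPY1R, the carnitine transporter gene SLC22A5, and PKIB, SIAH2, FKBP4, TPD52L1 and MREG. In control-vector cells 11 of 33 fell and 2 rose (edgeR adjusted p under 0.05), beside 14.3% and 13.4% of all genes tested (27.8% in either direction). In hairpin cells 15 fell and 3 rose, beside 19.6% and 21.3% of all genes (40.9% in either direction). The share of all genes that fell in both lines was not computed. The median log2 fold change of the 33 was -0.21 in control-vector and -0.32 in hairpin cells, against -0.01 over all genes in each. Values of treated and untreated libraries did not overlap for 13 of the 33 genes in control-vector cells, a share near the 37.9% of all genes. In hairpin cells they did not overlap for 23 of 33, beside 58.6% of all genes. In bulk RNA, fewer cells that express a gene and less RNA per cell cannot be told apart. In the same 2 comparisons 17 and 18 of 18 S phase and mitosis genes fell, with medians of -0.69 and -1.05, and the 13 mitochondrially encoded transcripts had medians of 0.25 and 0.35. The summed fibroblast markers went from 223.5 to 227.9 CPM down to 83.9 to 109.0 CPM in control-vector cells and from 247.8 to 252.0 CPM down to 82.9 to 107.6 CPM in hairpin cells. COL1A1 and THY1 carry that sum, since the other 5 markers averaged under 1 CPM. Of the 2 fibroblast markers tested, 1 was called lower in each line. The part of these 3 lists in the changes of the estrogen-regulated genes was not tested.

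**Figure D1:**
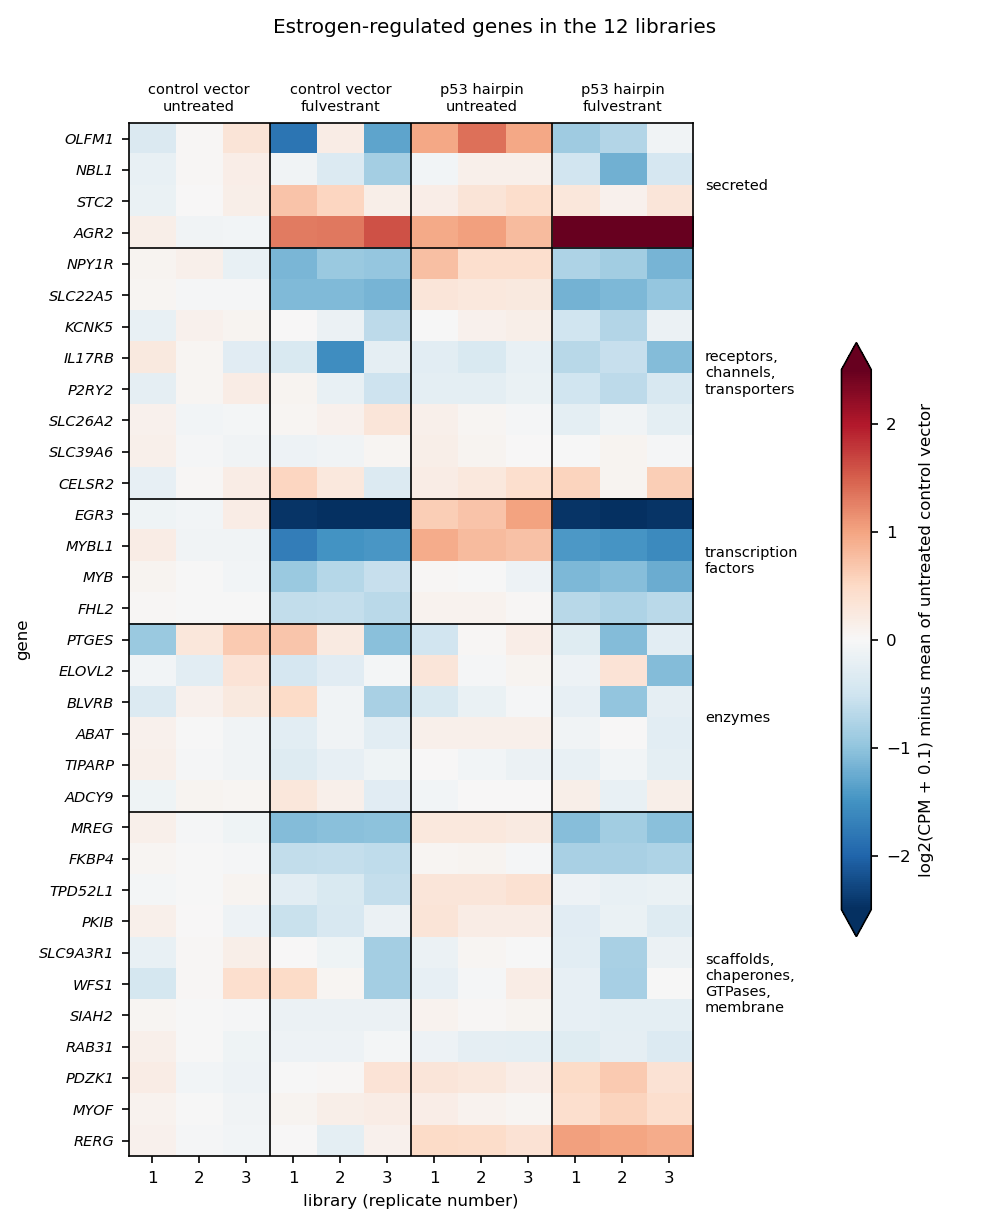
Each row is 1 of the 33 tested estrogen-regulated genes, grouped by role, and each column is 1 of the 12 libraries. Colour is log2(CPM + 0.1) minus the mean of the 3 untreated control-vector libraries, with the scale ending at 2.5 in each direction. Of the 11 genes that fell in both lines, MYBL1 and EGR3 are clearly blue in both treated groups, and SIAH2 is nearly white. Some rows outside the 11, such as IL17RB, are also blue there. AGR2 is the row that rose in both.

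All 4 tested transcription factor and cofactor genes fell in both lines, beside 14.3% and 19.6% of all genes in each line taken singly. So small a group does not describe the role. MYBL1 (ENST00000517885), which encodes the MYB family factor A-MYB, stood at 78.4, 64.8 and 64.8 CPM in untreated control-vector libraries and at 20.7, 24.3 and 25.0 CPM with fulvestrant. In hairpin cells it stood at 132, 119 and 114 CPM untreated and at 25.4, 24.8 and 22.7 CPM treated. The treated libraries of both lines thus lay in the same narrow range, while the untreated hairpin libraries all lay above the untreated control-vector libraries. The log2 fold change was -1.57 (SE 0.10, edgeR adjusted p = 3.70e-06) in control-vector and -2.32 (SE 0.10, adjusted p = 1.33e-07) in hairpin cells, where SEs here and below are approximate. This was a 2.97-fold and a 5.01-fold lower level.

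EGR3 (ENST00000317216), an early growth response factor gene known as a direct target of the receptor, was low before treatment and almost absent after it. Untreated control-vector libraries held 18, 15 and 21 EGR3 counts and treated libraries held 1, 0 and 1. Untreated hairpin libraries held 30, 28 and 38 counts and each treated library held 1. No treated library came near an untreated library. Over the group totals of 54 and 2 counts in control-vector cells the untreated level was 24.0 times the treated level (95% exact interval 6.33 to 203.2), and with 96 and 3 counts in hairpin cells it was 29.5 times (9.79 to 145). These intervals cover counting error only. The edgeR adjusted p-values were 7.20e-05 and 6.46e-06.

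MYB (ENST00000316528), the founding member of the same family as MYBL1, stood at 22.0, 20.9 and 20.2 CPM in untreated control-vector libraries and at 11.0, 12.9 and 14.1 CPM with fulvestrant. In hairpin cells it went from 21.5, 20.9 and 19.4 CPM to 9.55, 10.0 and 8.87 CPM. Untreated libraries of the 2 lines overlapped, and every treated hairpin library lay below every treated control-vector library. The log2 fold change with fulvestrant was -0.73 (SE 0.09, edgeR adjusted p = 0.000249) and -1.12 (SE 0.09, adjusted p = 6.99e-06) in the 2 lines. FHL2 (ENST00000322142), a LIM-domain cofactor gene, was among the most even between libraries, at 285, 277 and 279 CPM untreated and 183, 187 and 175 CPM treated in control-vector cells. In hairpin cells it stood at 297, 297 and 285 CPM untreated and at 174, 164 and 175 CPM treated. Treated and untreated values were far apart in both lines, with log2 fold changes of -0.63 (SE 0.05, edgeR adjusted p = 6.77e-06) and -0.78 (SE 0.05, adjusted p = 6.48e-07). PGR, which encodes the progesterone receptor and is a standard readout of estrogen action in breast cancer, held 0 to 6 counts per library and 26 in all, and was not tested.

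Of the 9 genes for receptors, channels and transporters, 8 were tested. NPY1R and SLC22A5 fell in both lines, and KCNK5 and SLC26A2 fell in hairpin cells. SLC22A5 (ENST00000245407), the carnitine transporter gene whose promoter window is printed above, stood at 23.9, 22.7 and 22.7 CPM in untreated and 10.6, 10.8 and 10.3 CPM in treated control-vector libraries. Hairpin libraries held 28.5, 27.7 and 27.3 CPM untreated and 10.1, 10.6 and 11.7 CPM treated. As for MYBL1, all untreated hairpin libraries lay above all untreated control-vector libraries, while the treated libraries of the 2 lines overlapped. The log2 fold change was -1.13 (SE 0.07, edgeR adjusted p = 2.58e-06) in control-vector and -1.36 (SE 0.07, adjusted p = 3.01e-07) in hairpin cells.

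NPY1R (ENST00000296533), which encodes a receptor for neuropeptide Y, stood at 3.41, 3.58 and 2.85 CPM in untreated and 1.42, 1.66 and 1.61 CPM in treated control-vector libraries. In hairpin libraries it went from 5.55, 4.42 and 4.41 CPM to 1.88, 1.73 and 1.41 CPM. Untreated libraries were above treated libraries throughout, with log2 fold changes of -1.06 (SE 0.16, edgeR adjusted p = 0.000755) and -1.51 (SE 0.16, adjusted p = 3.15e-05). The potassium channel gene KCNK5 stood at 13.1, 14.1 and 14.5 CPM in untreated and 9.28, 7.82 and 11.7 CPM in treated hairpin libraries, which did not overlap (log2 fold change -0.53, SE 0.18, edgeR adjusted p = 0.0368). In control-vector cells the KCNK5 groups overlapped (-0.24, adjusted p = 0.368). The KCNK5 call was lost without any 1 of the untreated hairpin libraries or without treated hairpin library 1 or 2 (adjusted p 0.0568 to 0.0996).

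The sulfate transporter gene SLC26A2 fell from 126 ± 6.96 to 107 ± 6.88 CPM in hairpin cells (log2 fold change -0.23, edgeR adjusted p = 0.0379), and stood at 122 ± 8.22 and 136 ± 12.6 CPM in control-vector cells (0.15, adjusted p = 0.193). The hairpin call was lost without untreated hairpin library 1 or 2, without treated hairpin library 1 or 3 and without treated control-vector library 1 or 2 (adjusted p 0.0516 to 0.198). DESeq2, DESeq2-type and upper-quartile factors, no low count filter and the replicate block lost it too. It was kept under 11 of 22 alternatives. The zinc transporter gene SLC39A6, the nucleotide receptor gene P2RY2, the interleukin-17 receptor gene IL17RB and the cadherin-family gene CELSR2 were called in neither line. SLC39A6 averaged between 128 and 139 CPM in the 4 groups, with log2 fold changes of -0.06 in both lines. IL17RB had log2 fold changes of -0.67 (SE 0.31, edgeR adjusted p = 0.143) and -0.53 (SE 0.32, adjusted p = 0.211), with 14 to 67 counts per library. RET, the receptor tyrosine kinase gene, held 2 to 12 counts per library and 94 in all, and was not tested.

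Among genes for secreted proteins, of which 4 of 7 were tested, AGR2 rose in both lines. AGR2 (ENST00000401412), which encodes a disulfide isomerase that is also secreted and is induced by estrogen in breast cancer cells, stood at 3.13, 2.65 and 2.69 CPM in untreated and 7.10, 7.17 and 8.75 CPM in treated control-vector libraries. In hairpin cells the values were 5.52, 5.85 and 4.96 CPM untreated and 18.9, 19.3 and 19.4 CPM treated. The 4 groups did not overlap anywhere, with treated hairpin cells highest and untreated control-vector cells lowest. The log2 fold change was 1.44 (SE 0.11, edgeR adjusted p = 1.07e-05), or 2.71-fold, in control-vector and 1.82 (SE 0.11, adjusted p = 6.66e-07), or 3.53-fold, in hairpin cells.

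The other secreted genes were called in 1 line each. STC2, the stanniocalcin 2 gene, stood at 167, 189 and 206 CPM in untreated and 305, 272 and 205 CPM in treated control-vector libraries, so that treated library 3 fell inside the untreated range (log2 fold change 0.48, SE 0.14, edgeR adjusted p = 0.0251). That call did not hold without untreated control-vector library 1 or 2 or treated control-vector library 1 or 2 (adjusted p 0.0642 to 0.0896). In hairpin cells the STC2 groups overlapped (log2 fold change -0.08, SE 0.14, adjusted p = 0.651). NBL1, which encodes an antagonist of bone morphogenetic proteins, stood at 79.3, 90.5 and 90.3 CPM in untreated and 59.9, 36.2 and 61.7 CPM in treated hairpin libraries (-0.72, SE 0.22, edgeR adjusted p = 0.0270). It lost its call without untreated hairpin library 2 or 3 (adjusted p = 0.0733 and 0.0717), and after a correction for GC content its log2 fold change was -0.18 (adjusted p = 0.508). In control-vector cells the value for NBL1 was -0.41 (SE 0.22, adjusted p = 0.217).

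OLFM1, an olfactomedin gene, rests on few counts: 16, 19 and 15 in untreated and 2, 3 and 5 in treated hairpin libraries. These did not overlap, and the fitted log2 fold change was -2.17 (SE 0.64, edgeR adjusted p = 0.0196). The OLFM1 call was lost without untreated hairpin library 2 and without treated hairpin library 1 or 2 (adjusted p 0.0656 to 0.0710). In control-vector cells OLFM1 held 5, 6 and 9 counts untreated and 0, 7 and 1 treated (-1.12, SE 0.76, adjusted p = 0.320). TFF1 and TFF3, the trefoil factor genes used as estrogen readouts in breast cancer cells, and CXCL12, a chemokine gene, had 0 counts in 12 of 12 libraries. At these depths a count of 0 allows up to 3 counts, or 0.107 to 0.141 CPM per library, for counting error only.

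**Figure D2:**
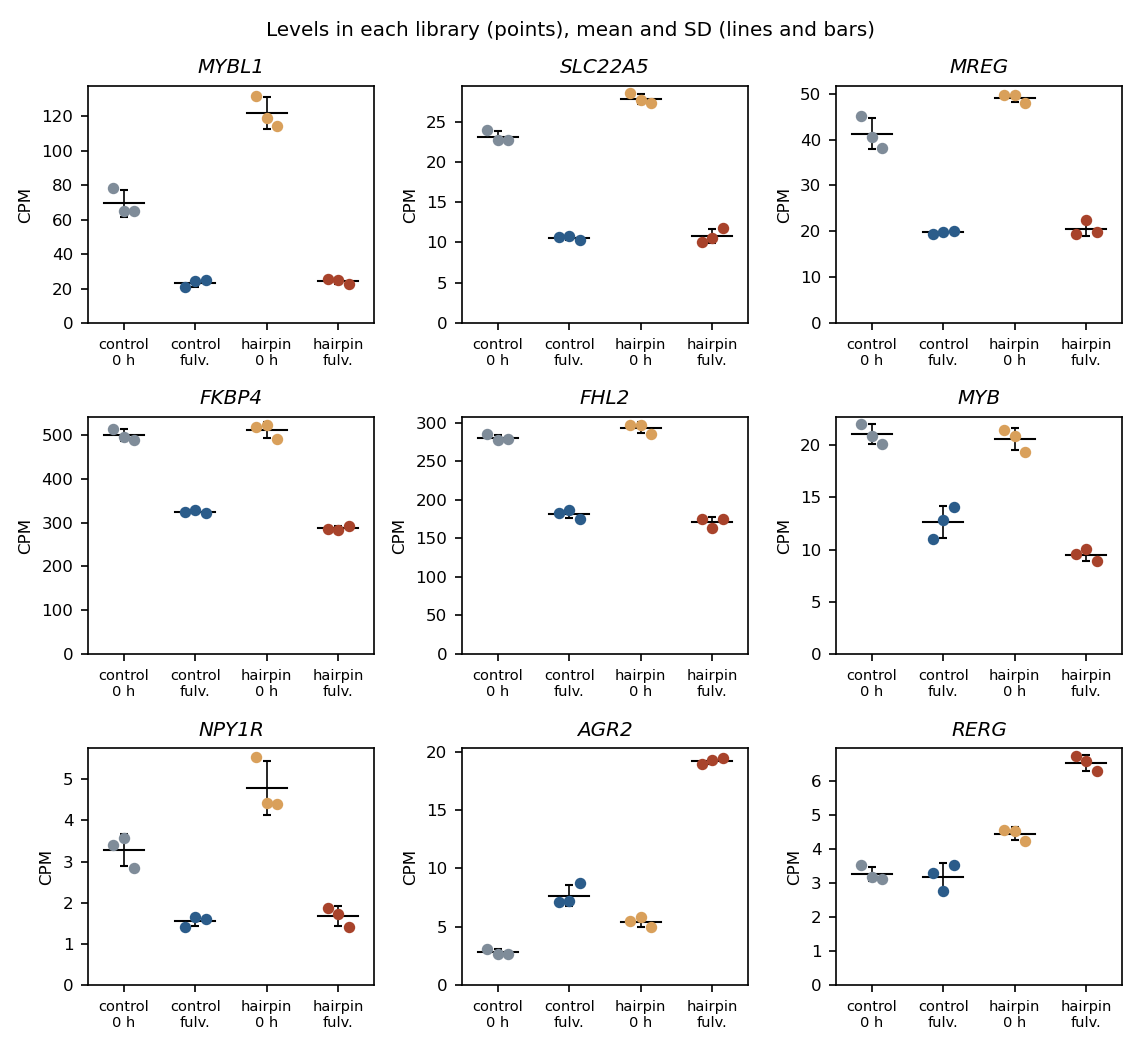
Points are single libraries, lines are means and bars are SDs of 3 libraries, in CPM with each axis starting at 0, for 9 estrogen-regulated genes in control-vector and p53 hairpin cells at 0 h and with fulvestrant (fulv.). MYBL1 fell from 69.3 and 122 CPM on average to 23.4 and 24.3 CPM, while AGR2 was highest in treated hairpin cells at 19.2 CPM.

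Of the 11 genes for scaffolds, chaperones, GTPases and other membrane or regulatory proteins, 5 fell in both lines. FKBP4 (ENST00000001008), which encodes the steroid receptor co-chaperone FKBP52, stood at 514, 495 and 489 CPM in untreated and 324, 329 and 323 CPM in treated control-vector libraries. In hairpin cells it went from 519, 523 and 490 CPM to 285, 283 and 292 CPM. All treated libraries were below all untreated libraries, and the log2 fold changes were -0.62 (SE 0.04, edgeR adjusted p = 5.37e-06) and -0.83 (SE 0.04, adjusted p = 3.50e-07). MREG (ENST00000263268), which encodes melanoregulin, a protein of organelle transport, went from 45.1, 40.6 and 38.3 CPM to 19.4, 19.8 and 20.1 CPM in control-vector cells. In hairpin cells MREG went from 49.8, 49.7 and 48.0 CPM to 19.5, 22.4 and 19.9 CPM. Its treated values overlapped between the 2 lines, and the log2 fold changes were -1.06 (SE 0.07, edgeR adjusted p = 5.52e-06) and -1.25 (SE 0.07, adjusted p = 6.90e-07).

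TPD52L1, a tumor protein D52 family gene, fell by 0.41 and 0.49 on the log2 scale in the 2 lines (edgeR adjusted p = 0.00221 and 0.000400). PKIB, which encodes an inhibitor of protein kinase A, fell from 35.3 ± 3.19 to 27.4 ± 3.96 CPM in control-vector cells (log2 fold change -0.36, edgeR adjusted p = 0.0234) and from 41.3 ± 2.11 to 29.5 ± 1.71 CPM in hairpin cells (-0.49, adjusted p = 0.00354). The control-vector call of PKIB did not hold without untreated control-vector library 1 or 2, treated control-vector library 1 or 2, or treated hairpin library 1 or 3 (adjusted p 0.0572 to 0.146). SIAH2, a ubiquitin ligase gene, fell less than the other 10 genes that fell in both lines, from 80.8 ± 2.17 to 72.9 ± 0.0603 CPM in control-vector cells (-0.15, edgeR adjusted p = 0.0203) and from 83.9 ± 1.82 to 68.9 ± 0.682 CPM in hairpin cells (-0.28, adjusted p = 0.000283). After the GC correction the values were -0.05 (adjusted p = 0.764) and -0.12 (adjusted p = 0.437). The control-vector call of SIAH2 was also lost without untreated control-vector library 1 or 2, treated control-vector library 1 or 2, or any 1 of the treated hairpin libraries (adjusted p 0.0502 to 0.154). DESeq2, upper-quartile factors, no or a stricter low count filter and a fit of the 6 libraries lost it too. It was kept under 8 of 22 alternatives.

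RERG and MYOF rose in hairpin cells and were not called in control-vector cells. RERG (ENST00000256953), which encodes a RAS-like GTPase that restrains growth and is named for its regulation by estrogen, stood at 4.58, 4.55 and 4.25 CPM in untreated and 6.75, 6.59 and 6.29 CPM in treated hairpin libraries (log2 fold change 0.55, SE 0.11, edgeR adjusted p = 0.00210). In control-vector cells its values were 3.52, 3.18 and 3.12 CPM untreated and 3.30, 2.75 and 3.52 CPM treated, which overlapped (-0.04, adjusted p = 0.869). MYOF, the gene of the membrane repair protein myoferlin, rose from 674 ± 30.1 to 870 ± 47.1 CPM in hairpin cells (0.37, edgeR adjusted p = 0.000753) and stood at 630 ± 36.9 and 690 ± 28.3 CPM in control-vector cells (0.13, adjusted p = 0.146). PDZK1 and SLC9A3R1, which encode PDZ scaffolds, the GTPase gene RAB31 and WFS1, the gene of the endoplasmic reticulum protein wolframin, were called in neither line. PDZK1 came nearest in hairpin cells, at 0.26 (SE 0.12, edgeR adjusted p = 0.0949).

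None of the 6 enzyme genes was called by edgeR in either line, and none by DESeq2. At an unadjusted edgeR p under 0.05 there were 2 lower genes in control-vector cells (ABAT and TIPARP) and 1 in hairpin cells (ABAT). The share of all genes below that unadjusted threshold was not computed. The log2 fold changes of the 6 enzyme genes lay between -0.31 and 0.06 in control-vector and between -0.44 and 0.06 in hairpin cells. TIPARP, a mono-ADP-ribosyltransferase gene, stood at 207, 186 and 178 CPM in untreated and 152, 165 and 176 CPM in treated control-vector libraries, which did not overlap (-0.21, SE 0.08, edgeR adjusted p = 0.0668). ABAT, the GABA transaminase gene, had -0.21 (SE 0.09, adjusted p = 0.120) and -0.23 (SE 0.09, adjusted p = 0.0639) in the 2 lines. ADCY9, an adenylyl cyclase gene, had 0.06 in both (SE 0.13). For PTGES, a prostaglandin E synthase gene, the 3 untreated control-vector libraries ranged from 6.51 to 19.8 CPM, and the SE of its log2 fold change was 0.48 in both lines. ELOVL2, a fatty acid elongase gene, and BLVRB, a biliverdin reductase gene, had SEs of 0.32 to 0.36.

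All 11 genes that fell in both lines had a more negative log2 fold change in hairpin than in control-vector cells. For EGR3 (-0.36, SE 1.11), PKIB (-0.12, SE 0.15) and TPD52L1 (-0.08, SE 0.10) the difference was smaller than its SE. The difference between the responses was called for none of the 33 genes by edgeR, beside 0.0127% of all genes in each direction (0.0255% in either). The smallest adjusted p was that of MYBL1, whose response differed by -0.76 (adjusted p = 0.146). At an unadjusted p under 0.05 there were 11 genes (AGR2, STC2, SLC22A5, SLC26A2, MYB, MYBL1, FHL2, RERG, SIAH2, FKBP4 and MYOF), beside 7.45% of all genes. DESeq2 called MYBL1 alone of the 33 (-0.75, adjusted p = 0.00338), beside 47 of all genes, against 4 of all genes by edgeR. With GC correction edgeR called 5, of which MYBL1 (-0.81), MYB, SLC26A2 and FKBP4 were lower and MYOF higher in the hairpin response, beside 596 of all genes. RERG differed by 0.59 (edgeR adjusted p = 0.282) and AGR2 by 0.38 (adjusted p = 0.597), so that a call in 1 line and not in the other is not shown to be a difference between the lines for RERG, MYOF, STC2, OLFM1, NBL1, KCNK5 or SLC26A2. The median difference over the 33 genes was -0.14, against -0.01 over all genes. All 18 S phase and mitosis genes also had a difference below 0, with a median of -0.39, and their part in it was not tested.

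**Figure D3:**
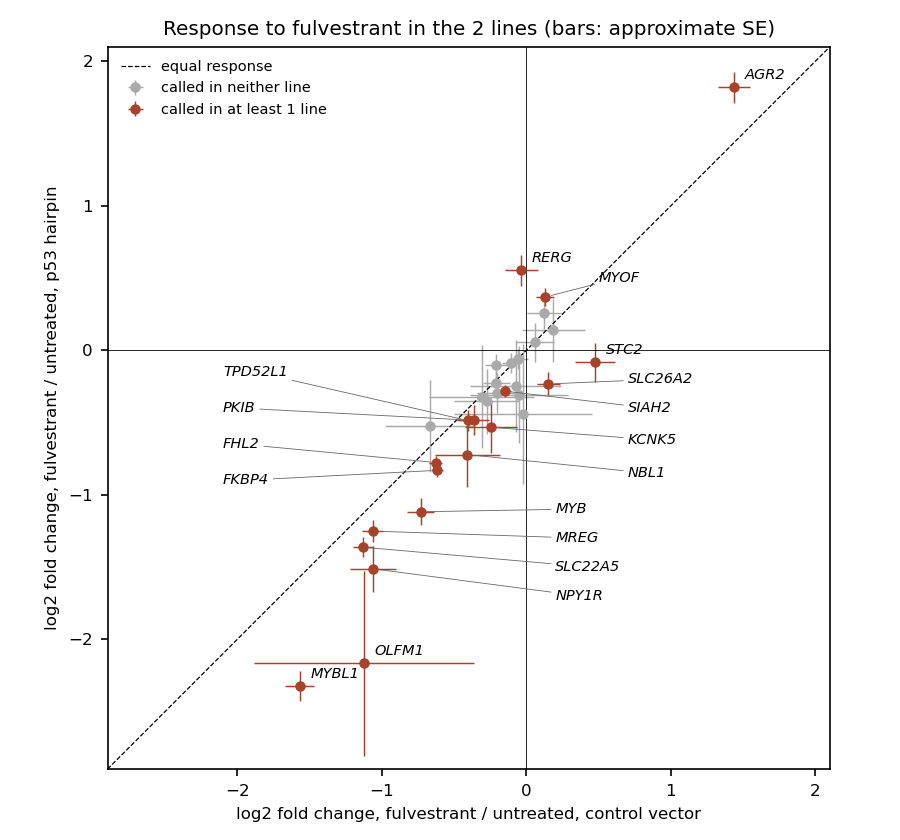
Each point is 1 of 32 tested estrogen-regulated genes (EGR3 is left out because its treated groups hold 2 and 3 counts), with the log2 fold change with fulvestrant in control-vector cells on the x axis and in p53 hairpin cells on the y axis, and bars of 1 approximate SE. The genes that fell in both lines lie below the dashed line of equal response, MYBL1 at -1.57 and -2.32, and AGR2 lies above it at 1.44 and 1.82.

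In untreated cells AGR2 and MYBL1 were higher with the p53 hairpin. The comparisons of the lines use the same libraries as those of fulvestrant, so they are not independent of them. These 2 of 33 genes rose, beside 1.02% of all genes, and 0 fell by edgeR, beside 0.566% (1.58% in either direction). AGR2 rose by 0.94 on the log2 scale (SE 0.11, edgeR adjusted p = 0.00169), a 1.92-fold higher level, and MYBL1 by 0.81 (SE 0.10, adjusted p = 0.00169), or 1.76-fold, with no overlap between the libraries listed above. The values of 15 of the 33 genes did not overlap between the lines, beside 16.2% of all genes. Fitted changes were above 0 for 23 of 33 genes, beside 7493 of all 15715 genes, with a median of 0.08 against -0.01 over all genes. Next to the called genes stood TPD52L1 (0.33, SE 0.07, edgeR adjusted p = 0.0625), SLC22A5 (0.27, SE 0.07, adjusted p = 0.0863) and RERG (0.44, SE 0.11, adjusted p = 0.0934). NPY1R had 0.55 (SE 0.15, adjusted p = 0.142) and EGR3 0.86 (SE 0.25, adjusted p = 0.170). At an unadjusted p under 0.05, 11 genes were higher and 1, RAB31, was lower, and the share of all genes at that threshold was not computed. DESeq2 called 3 higher and 0 lower, beside 171 higher and 102 lower of all genes. Mitochondrially encoded transcripts had a median of 0.23 in this comparison, and their part in it was not tested.

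With fulvestrant, hairpin cells had higher AGR2, RERG and MYOF and lower MYB, SLC26A2 and FKBP4 than control-vector cells. The 3 higher and 3 lower genes of 33 stand beside 4.28% and 2.74% of all genes (7.02% in either direction), and 10 of 33 did not overlap, beside 23.6% of all genes. AGR2 differed by 1.32 (SE 0.10, edgeR adjusted p = 0.000105), or 2.50-fold, and RERG by 1.03 (SE 0.11, adjusted p = 0.000405), or 2.05-fold. The library values given above show no overlap between the treated lines for either gene. MYOF was 1.26-fold higher (0.33, adjusted p = 0.00903). MYB had -0.42 (SE 0.09, edgeR adjusted p = 0.0245), SLC26A2 -0.34 (SE 0.08, adjusted p = 0.0278) and FKBP4 -0.18 (SE 0.04, adjusted p = 0.0291). MYBL1, NPY1R, SLC22A5 and MREG, at 0.03 to 0.10 and with overlapping libraries, were not called in this comparison (adjusted p 0.647 to 0.815).

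The 4 smaller calls of that comparison were each lost without any 1 of several libraries, with the direction unchanged. The calls of MYB, SLC26A2 and FKBP4 were each lost without treated control-vector library 2 and without treated hairpin library 1 or 3, which left 0 lower genes, and those of MYB and FKBP4 without treated hairpin library 2, which left 1. MYB and SLC26A2 also lost theirs without treated control-vector library 3 (adjusted p = 0.0563 and 0.0602), and FKBP4 without untreated control-vector library 2 (0.0543). The adjusted p-values without 1 library ranged from 0.0563 to 0.145 for MYB, from 0.0602 to 0.185 for SLC26A2 and from 0.0543 to 0.148 for FKBP4 where the call was lost. The log2 fold changes there were -0.30 to -0.49 for MYB, -0.24 to -0.39 for SLC26A2 and -0.17 to -0.20 for FKBP4. MYOF lost its call without treated control-vector library 1 or 2 or treated hairpin library 1 or 2 (0.26 to 0.36, adjusted p 0.0546 to 0.0932). In the same comparison 11 of 18 S phase and mitosis genes were lower, with a median of -0.49, and mitochondrially encoded transcripts had a median of 0.31. Their part in these differences was not tested.

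**Figure D4:**
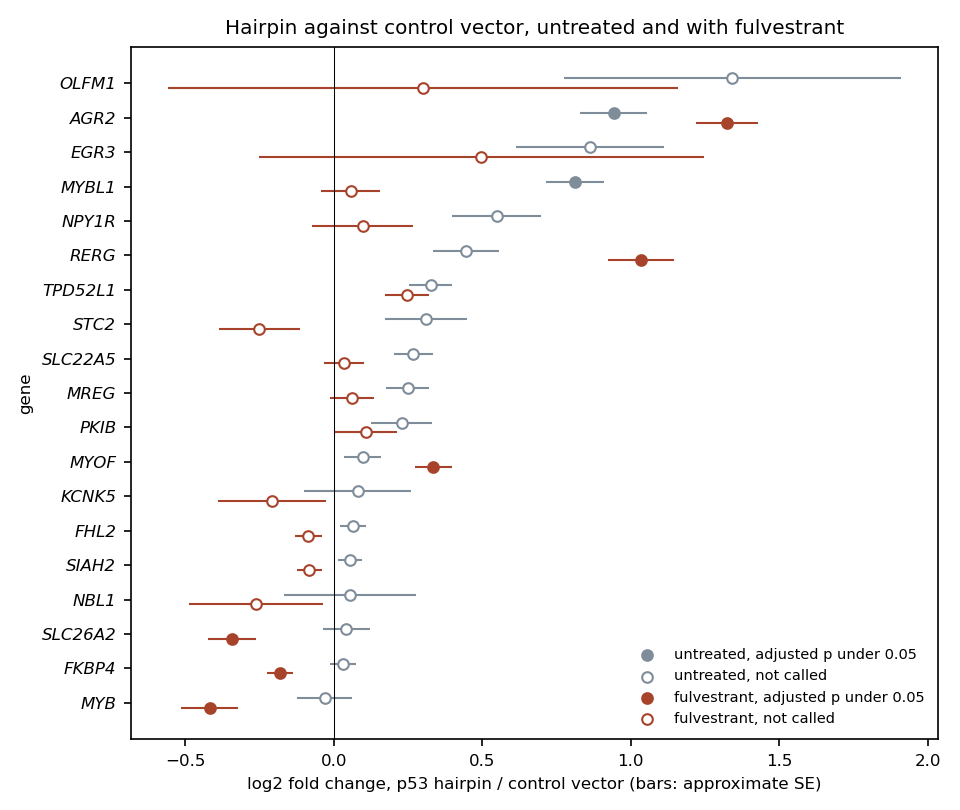
Points are log2 fold changes of p53 hairpin against control vector for the 19 estrogen-regulated genes called in at least 1 of the 4 pairwise comparisons, untreated (grey) and with fulvestrant (red), with bars of 1 approximate SE. Filled points passed an edgeR adjusted p of 0.05, and AGR2 is filled in both, at 0.94 and 1.32.

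The receptor and further estrogen response genes give the setting. ESR1 (ENST00000206249) was at 134 ± 5.79 and 154 ± 4.24 CPM in untreated and treated control-vector cells and at 164 ± 4.34 and 213 ± 0.996 CPM in hairpin cells. Of 35 other estrogen response genes, all tested, 12 (34.3%) fell and 6 (17.1%) rose with fulvestrant in control-vector cells. All genes tested had 14.3% and 13.4%. In hairpin cells 16 (45.7%) fell and 5 (14.3%) rose, beside 19.6% and 21.3% of all genes. The medians of this list were -0.17 and -0.33, beside the -0.21 and -0.32 of the 33 genes. The largest changes of that list were those of CA12 (-6.38 and -6.36), GREB1 (-2.80 and -3.55), CISH (-2.62 and -2.49) and DHRS2 (-2.42 and -2.83). Apart from EGR3, no change among the 33 reached that of GREB1 in either line. Against control-vector cells, untreated hairpin cells had 5 of the 35 higher, beside 1.02% of all genes. Treated hairpin cells had 4 higher and 1 lower, beside 4.28% and 2.74% of all genes. GREB1 was the 1 gene of the list called in the difference between the responses, at -0.75 (SE 0.10, edgeR adjusted p = 0.0478), beside the -0.76 of MYBL1. Of 15 tested receptors and coregulators, 4 rose with fulvestrant in control-vector cells, beside 13.4% of all genes. In hairpin cells 7 of these rose and 2 fell, beside 21.3% and 19.6% of all genes.

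The spread between libraries of a group followed the GC content of the transcript. For the library of each group that lies farthest along the trend, its difference from the other 2 had a Spearman correlation with GC content across the 33 genes of -0.75 and -0.78 in untreated and treated control-vector cells and -0.87 and -0.74 in hairpin cells. Over all genes the same values were -0.62, -0.72, -0.52 and -0.67. The libraries were picked for this trend, and genes of 1 library are not independent replicates, so these values only describe it. The 11 genes with at least 55% GC, among them NBL1, CELSR2, KCNK5, PTGES and WFS1, were lower in that library by a median of 0.16 to 0.63 on the log2 scale over the 4 groups. SIAH2, also of that class, did not follow, at 0.07 and 0.04 higher in the untreated groups and at -0.00099 and -0.01 in the treated groups. The 13 genes under 45% GC, with AGR2, MYBL1, MYB, NPY1R and RERG, were higher there by a median of 0.10 to 0.22, with TPD52L1 lower in all 4 groups. Without these 4 libraries, a setting chosen after the data were seen, all 39 calls made for the 33 genes in the 4 pairwise comparisons were kept, and 14 further calls were made in these comparisons. Leaving them out narrows the spread within groups, so the kept calls are no test of stability. Over all genes, higher and lower calls went from 160 and 89 to 284 and 141 in untreated hairpin cells. In treated hairpin cells they went from 672 and 431 to 1307 and 1696. With fulvestrant they went from 2112 and 2251 to 2263 and 3009 in control-vector cells. In hairpin cells they went from 3351 and 3080 to 3225 and 4217. The median GC content of the 33 genes was 47.6%, against 48.2% for all genes tested.

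**Figure D5:**
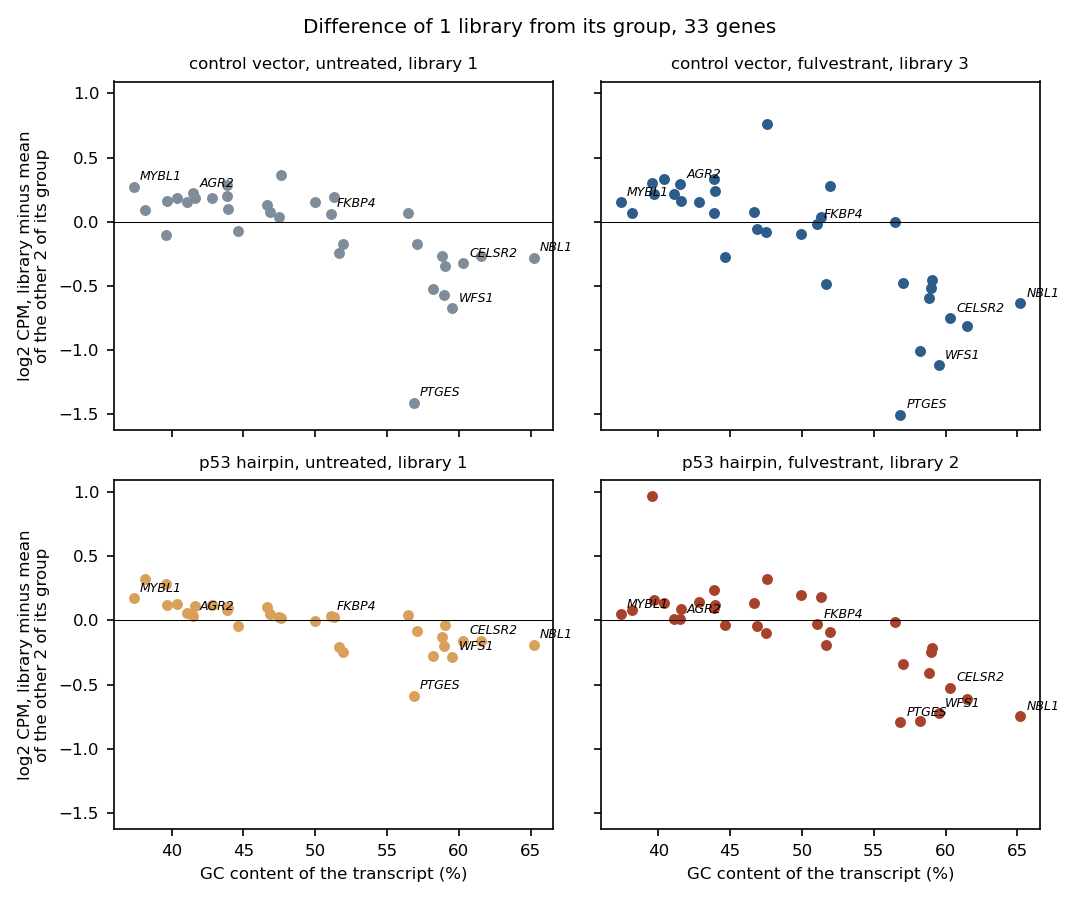
Each panel plots the 33 genes for 1 group, with the GC content of the transcript in percent on the x axis and, on the y axis, log2 CPM in the library farthest along the GC trend minus the mean of the other 2 libraries. Genes of high GC content such as PTGES and WFS1 lie below 0 and those of low GC content such as MYBL1 and AGR2 lie at or above 0 in all 4 panels.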

How the data were processed

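A stranded mRNA protocol with 9 PCR cycles and 500 ng of input RNA gave the 12 libraries, per the labels. The deposited table holds expected counts per gene, which the authors estimated with RSEM and did not normalize, per the file headers. RSEM 1.3.3, Bowtie2, cutadapt and MultiQC, with GRCh37/hg19, are named per the submitters' processing notes. The sources used here give neither the annotation release nor whether counting used the strand. Another 6 per-sample columns, which matched none of the 12 samples, were left out. RSEM divides reads shared by near-identical transcripts, so counts of genes with close copies are less certain.

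Counts were rounded to whole numbers and analysed in R 4.3.3 with edgeR 4.0.16: TMM scaling, filterByExpr by group (15715 genes left), and 1 robust quasi-likelihood fit of all 12 libraries with 4 group means and 5 contrasts. Benjamini-Hochberg adjustment ran over all genes tested, with a threshold of 0.05. An approximate SE is the size of the log2 fold change over the square root of F. The fit was tested on simulated data. Genes past the threshold with groups that do not overlap and an absolute log2 fold change of at least 0.5 were to be given in every library, and the other genes by count, range or short values. Outside the 38 genes, ESR1, GREB1 and the 4 largest called changes of a list of estrogen response genes per fulvestrant comparison were named. The level of the gene that the hairpin targets is not reported here. The genes and lists were chosen with earlier results of these data known.

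Alternatives were other scalings (upper quartile, and DESeq2-type factors), DESeq2 1.42.0, no or a stricter low count filter, a fit of the 6 libraries compared, the replicate number as a block, a GC content correction and leaving out single libraries. Transcript GC content came from GENCODE transcripts matched by identifier, for 97.8% of the genes tested. Promoter windows came from RefSeq (GRCh38.p14), matched by symbol.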

Additional observations from a re-analysis of the deposited data

How the results depend on the processing

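Of the 39 calls made for the 33 genes over the 4 pairwise comparisons, 27 were kept under each of 22 alternatives, 12 were lost under at least 1, and 0 changed direction. After the GC content correction, in untreated cells hairpin against control vector gave 7 higher and 1 lower genes (from 2 and 0), and with fulvestrant 5 and 5 (from 3 and 3). The same correction gave 6 higher genes with fulvestrant in control-vector cells (from 2) and 6 in hairpin cells (from 3), and 1 higher and 4 lower in the difference between the responses (from 0 and 0). Over all genes it moved the calls from 160 higher and 89 lower to 576 and 434 in untreated cells, from 2112 and 2251 to 3335 and 3419 and from 3351 and 3080 to 4284 and 4188 with fulvestrant in the 2 lines, and from 2 and 2 to 194 and 402 for the difference. Whether the numbers of the libraries pair them is not known. Same-numbered libraries deviated from their group means with correlations between -0.63 and 0.46. These deviations also carry the GC trend, so they cannot decide it. With the replicate block, 0 genes were lower in treated hairpin cells (from 3) and 1 was higher with fulvestrant in control-vector cells (from 2). Over all genes these counts went from 431 to 246 and from 2112 to 1752. With the replicate block and the GC correction together, the counts were 4 higher and 1 lower for untreated hairpin cells, 5 higher for treated hairpin cells, 6 and 5 higher with fulvestrant in the 2 lines, and 1 higher and 4 lower for the difference. Over all genes the same setting gave 409 higher and 307 lower for untreated hairpin cells and 1255 higher for treated hairpin cells. It gave 3080 and 4029 higher with fulvestrant in the 2 lines, and 116 higher and 262 lower for the difference. For the lower genes of treated hairpin cells, upper-quartile factors and a fit of the 6 libraries gave 0, a filter of 1 CPM gave 6, and leaving out the 4 libraries farthest along the GC trend, chosen after the data were seen, gave 7. Over all genes these settings gave 276, 118, 853 and 1696 lower, from 431, so the calls moved in the same direction. Leaving out those 4 libraries also gave 5 higher genes in untreated hairpin cells and 3 lower in the difference, where DESeq2 gave 1 and the 1 CPM filter 2. Over all genes the higher calls in untreated hairpin cells went from 160 to 284. The lower calls in the difference went from 2 to 38, 27 and 45 in these settings. For the higher genes with fulvestrant in control-vector cells, the 1 CPM filter gave 4 and the 6 libraries gave 1, beside 3063 and 1216 of all genes (from 2112). The difference between the responses needs all 4 groups and has no fit of 6 libraries. The cause of these shifts was not tested. Some settings also use a smaller set of genes or libraries.

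Without 1 library at a time, counts were 2 to 3 higher and 0 lower in untreated hairpin cells, 2 to 4 higher and 0 to 3 lower in treated hairpin cells, and 0 in either direction for the difference. With fulvestrant they were 1 to 2 higher and 9 to 12 lower in control-vector cells and 3 to 4 higher and 11 to 16 lower in hairpin cells. The lower count in treated hairpin cells was 0 without treated control-vector library 2 or treated hairpin library 1 or 3, and 1 without treated hairpin library 2. Over all genes the lower calls there were 212, 180, 220 and 267, from 431. The higher count in control-vector cells was 1 without library 1 or 2 of either of its groups, where STC2 was lost. Over all genes, upper-quartile factors moved the split of calls from 2112 higher and 2251 lower to 2474 and 1546 in control-vector cells and from 3351 and 3080 to 3999 and 2366 in hairpin cells. The GC correction moved it from 672 and 431 to 1510 and 1656 in the comparison of the treated lines. EGR3 and OLFM1, with few counts in treated groups, and RET and PGR, with few counts in every group, are limited by depth.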

Other observations

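Of the 14 tested estrogen-regulated genes called in none of the 4 pairwise comparisons, some passed after the GC content correction, and the following were picked after their values were seen. CELSR2, a cadherin-family gene, then stood higher in all 4 comparisons, at 0.33 and 0.48 for hairpin against control vector (untreated and treated) and 0.30 and 0.45 with fulvestrant (control-vector and hairpin cells), with edgeR adjusted p-values from 1.53e-07 to 5.21e-05. RAB31, a GTPase gene, stood lower in all 4, at -0.21 and -0.26 for the hairpin and -0.12 and -0.17 with fulvestrant (adjusted p 0.000171 to 0.0112). TIPARP was lower with fulvestrant in both lines, at -0.23 and -0.19 (adjusted p 3.49e-05 and 0.000129), and the zinc transporter gene SLC39A6 at -0.08 and -0.14 (adjusted p 0.0142 and 0.000239). Without the correction the same genes had adjusted p-values of 0.0668 or more in these comparisons.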
